A study of Mus musculus with 10 samples.

Results

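The Slc25 genes encode the mitochondrial carrier family, and they were examined here in primary adipocytes with and without an intact Fam20c gene. Members were the genes of the count table whose symbol begins with Slc25a and a digit, without those marked as pseudogenes by -ps in the name. This gave 47 members among 56748 genes. Of these, 39 had enough counts to be tested, among 14270 genes tested in all.

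RNA-seq had been done on 5 control and 5 KO cultures of adipocytes differentiated from the stromal vascular fraction of inguinal fat, the mixed cells left after fat cells are removed. The study's description of this comparison counts fewer samples per group than the labels and the count table do. All 10 libraries of the table were used, and each was left out in turn as an alternative. The donors were male mice of 6 to 8 weeks, and differentiation took 6 to 8 days. Mice were on a C57BL/6J background. Control mice were Fam20c-flox, which carry a Fam20c gene flanked by sites for Cre recombinase. Ad-Fam20c–KO mice carried the same floxed gene together with Adiponectin-Cre, so that Cre was made under the adiponectin promoter, which is active in adipocytes and not in the precursor or vascular cells of the fraction. Libraries held 18949106 to 26237825 counts. The labels do not say whether each library came from its own animal, and p-values measure the spread between these libraries. Values are CPM, counts scaled to library size after TMM normalization, given as mean ± SD over the 5 libraries of a group. Levels of different genes are compared only as CPM per kb of exon.

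Mitochondrial carriers are small proteins of the inner membrane that exchange nucleotides, phosphate, carboxylic acids, amino acids and cofactors between the cytosol and the mitochondrial matrix. In adipocytes they are known for exporting citrate for fatty acid synthesis, for bringing fatty acids in as carnitine esters, and for exchanging ADP and ATP. Uncoupling protein 1, the heat-producing carrier of brown and beige fat, belongs to the same family under another name.

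Fam20c itself, the deleted gene (chromosome 5, 138754514 to 138810077, plus strand, GRCm38), fell from 10.2 ± 1.29 to 7.30 ± 0.449 CPM (SD, n = 5). It lay between 8.86 and 11.9 CPM in control and between 6.65 and 7.74 CPM in KO libraries, without overlap. The log2 fold change was -0.49, with a 95% interval from -0.69 to -0.29 (adjusted p = 0.0137, edgeR quasi-likelihood test, Benjamini-Hochberg). Counts cover the whole gene, so the floxed exons are not seen apart from the rest.

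The label of the cells was checked against marker lists. All 12 adipocyte markers were detected and 0 passed the adjusted limit of 0.05. Fabp4, a fatty acid binding protein, was the most abundant per kb, with 20805 CPM in control against 22552 CPM in KO, and the summed adipocyte markers ran from 41071 to 42197 CPM in control and from 42902 to 44887 CPM in KO libraries. Markers of other cells were present as well. Over all 14270 genes tested, 1.86% were lower and 0.308% higher in KO at the same limit. Of 13 endothelial markers, 10 fell and 0 rose, and their sum was 174, 183, 209, 219 and 208 CPM in control libraries 1 to 5, against 114, 88.3, 90.0, 75.4 and 82.0 in KO libraries 1 to 5. Cdh5, an endothelial junction protein and the most abundant of them per kb, had 53.1 CPM in control against 22.1 CPM in KO. Of 8 fibroblast or progenitor markers, 3 fell and 0 rose (Pdgfra, Cd34 and Col1a1), with sums of 2763 to 3233 CPM in control and 2379 to 2801 CPM in KO libraries. Per kb of exon the most abundant of these 8 was Ly6a, at 421 CPM per kb in control, ahead of Col1a1 at 214 CPM per kb. Of the tested macrophage (9), pericyte or smooth muscle (7), skeletal muscle (5) and epithelial (1) markers, 0 passed the limit, with Lyz2 (1116 CPM), Pdgfrb (91.5 CPM), Acta1 (7.60 CPM) and Krt19 (25.0 CPM) the most abundant per kb in control. The erythroid markers Hba-a2, Hbb-bs and Hbb-bt had 0 counts, and Alas2 was near 0. In such mixed cultures fewer cells of a type and less RNA per cell cannot be told apart, and the part of these other cells in the results on carriers was not tested.

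In control adipocytes the carriers spanned a wide range of levels, and a few made up most of the family. The most abundant was Slc25a5, an ADP/ATP carrier, at 502 CPM per kb, which was 29.4% of the family's summed CPM per kb. The next were Slc25a39, required for glutathione import, Slc25a1, the citrate carrier, Slc25a4, a second ADP/ATP carrier, and Slc25a11, the oxoglutarate/malate carrier, and these 5 together held 63.8% of the sum. The 10 most abundant members, which also include Slc25a10, Slc25a3, Slc25a44, Slc25a51 and Slc25a20, held 82.8% and were the same 10 in KO. The median of the 39 tested members was 10.6 CPM per kb, against 4.14 CPM per kb for all tested genes with a length. Between control cultures the members had a median coefficient of variation of 6.06%, against 9.24% over all tested genes, and it ran from 1.53% for Slc25a5 to 36.3% for Slc25a27, a carrier at 0.894 CPM. The members and all tested genes were not matched for level, so these 2 medians do not show whether carriers vary less than genes of like level.

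**Figure D1:**
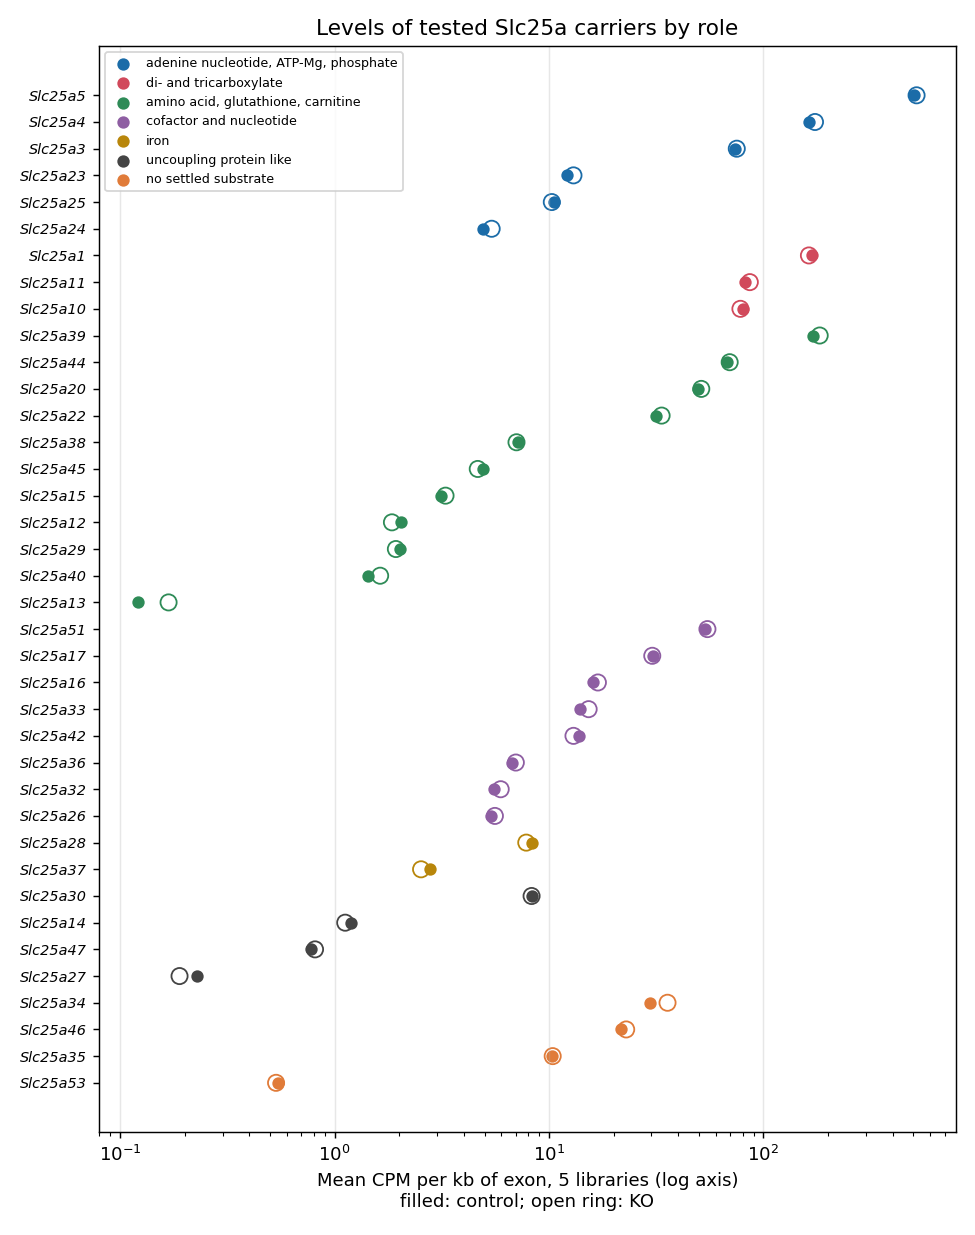
Mean level of each of 38 tested carriers in CPM per kb of exon on a log axis, grouped and coloured by role, with filled points for control and open rings for KO (5 libraries each). Slc25a5 lies highest at 502 CPM per kb in control and Slc25a13 lowest at 0.121, and filled points and rings lie close together for nearly all carriers.

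The other 8 members were too low to test. Slc25a43 had 25 counts over the 5 control libraries and 19 over the 5 KO libraries, Slc25a21, an oxodicarboxylate carrier, 15 and 7, and Slc25a2, an ornithine carrier, 13 and 7. Slc25a31, an ADP/ATP carrier best known from the testis, had 8 and 8. Slc25a41, Slc25a18 and Slc25a48 had at most 1 count in either group, and Slc25a54 had 0 in all 10 libraries, which allows a level of up to 0.0137 CPM over the 10 libraries together (3 counts; this covers counting error only).

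Between KO and control adipocytes, 0 of the 39 tested carriers passed the adjusted limit of 0.05 by edgeR's quasi-likelihood test, either higher or lower. Over all 14270 genes, 2.17% passed it, 0.308% higher and 1.86% lower in KO. These reference counts, 44 higher and 265 lower, moved with the libraries and the tool. The higher genes numbered 119 without control replicate 4 and 19 to 29 without control replicate 1, 3 or 5 or KO replicate 2, 3, 4 or 5, and the lower genes numbered 164 without KO replicate 2 and 171 without KO replicate 5. DESeq2 called 125 genes higher, limma voom 111 and the fit with the replicate block 21. DESeq2 also called 0 carriers, and limma voom called 1, Slc25a34. At an unadjusted p under 0.05, 6 of the 39 carriers (15.4%) were picked out, near the 11.9% of all genes. With a library left out this count ran from 2 without control replicate 5 to 8 without KO replicate 1. With the replicate block it was 2. In 0 of the 39 did the KO libraries lie wholly apart from the control libraries, an arrangement seen for 3.97% of all genes.

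The carriers' differences were small. Log2 fold changes were positive for 24 and negative for 15 members (61.5% positive, against 49.7% of all tested genes), with a median of 0.045 against -0.00085 for all tested genes, and the median size regardless of sign was 0.075 against 0.072. The count of 24 positive members was the same under the 3 scalings tried (TMM, RLE and upper quartile) and ran from 23 to 26 with a library left out. The median of 0.045 was 0.024 without KO replicate 4 and 0.038 to 0.058 without any other single library. Among the 33 carriers above 10 CPM, the 95% interval reached from 0.0768 to 0.320 to either side of the estimate on the log2 scale. For 25 of these 33, the whole interval lay within 0.25 of 0. The other 8 were Slc25a12, Slc25a24, Slc25a32, Slc25a33, Slc25a34, Slc25a37, Slc25a40 and Slc25a45. For the 6 carriers at or under 10 CPM it reached up to 0.707, and smaller differences could not be detected in the lowest of them at this depth.

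**Figure D2:**
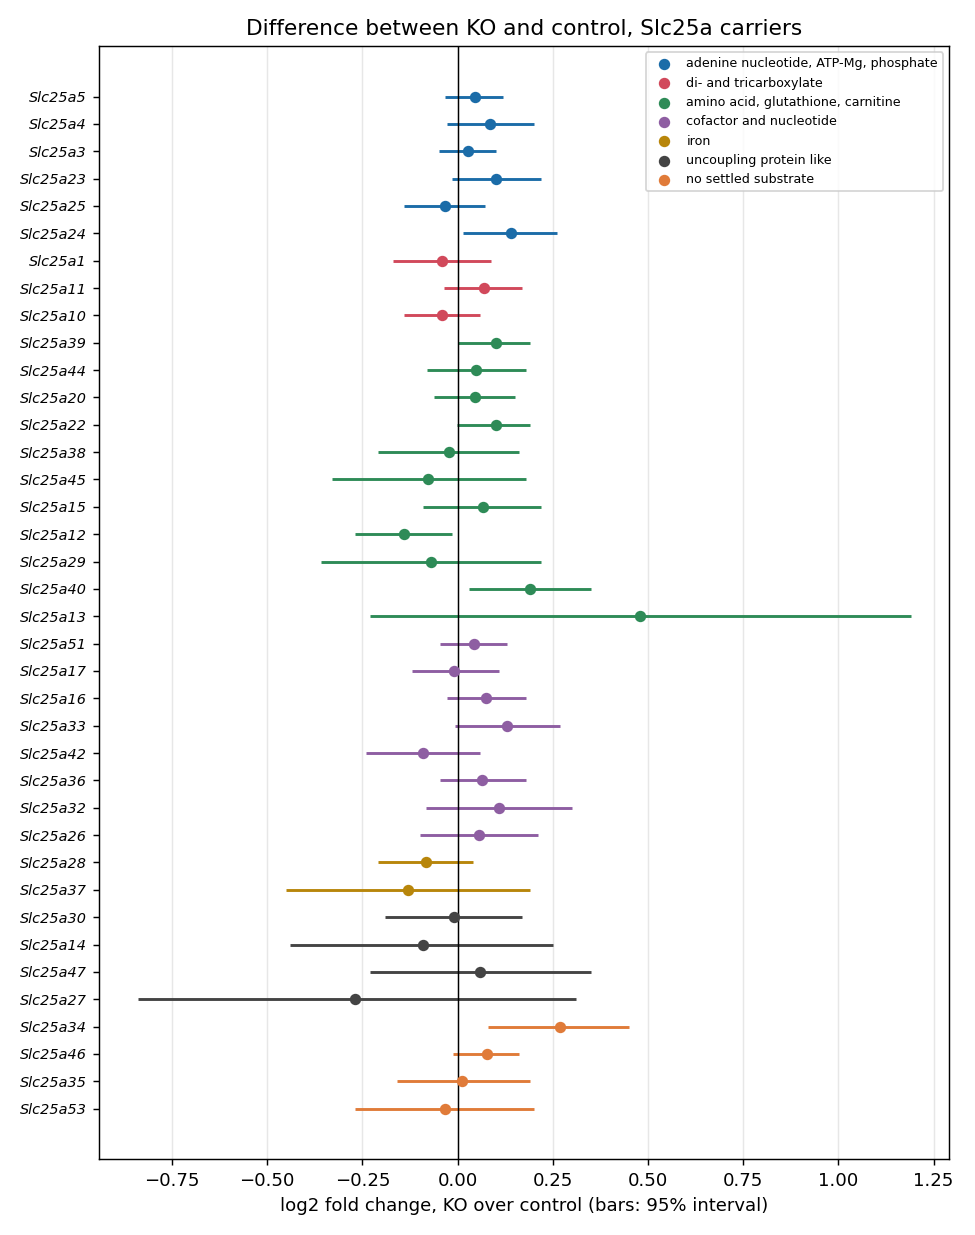
Log2 fold change of KO over control for 38 tested carriers (points) with 95% intervals (bars), grouped and coloured by role. Most intervals cross 0 and stay within 0.25 of it, and the widest is that of Slc25a13, from -0.23 to 1.19.

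Summed over all 47 members, the family had 4963, 4967, 5037, 5002 and 5003 CPM in control libraries 1 to 5, against 5165, 5057, 5132, 5200 and 5221 in KO libraries 1 to 5. Each KO library thus lay above each control library, by 3.21% of the control mean on average. This sum is a description without a test, and it is led by the most abundant members. Slc25a39 gave 32.2 CPM, Slc25a5 26.4 CPM, Slc25a4 23.7 CPM and Slc25a34 16.1 CPM of the mean difference of 160.4 CPM, while Slc25a1 was 10.0 CPM lower in KO than in control. Some of these parts rested on 1 library. Without KO replicate 4 the log2 fold change of Slc25a5 was 0.024 in place of 0.045, without KO replicate 1 that of Slc25a4 was 0.049 in place of 0.086, and without control replicate 4 that of Slc25a1 was -0.00012 in place of -0.040. The summed adipocyte markers and the summed brown or beige fat markers were also higher, and the summed endothelial markers lower, in each KO library than in each control library, and their part in the carrier sum was not tested.

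Among the carriers of adenine nucleotides, ATP-Mg and phosphate, 6 of 8 members were tested and 0 passed the limit, with 5 positive and 1 negative log2 fold change and a median of 0.066. Slc25a5 (chromosome X, 36795651 to 36798807, plus strand) had 819, 818, 828, 816 and 847 CPM in control libraries 1 to 5, against 841, 826, 848, 903 and 842 in KO libraries 1 to 5. Only KO libraries 3 and 4 lay above all control libraries. KO and control differed by a log2 fold change of 0.045, with a 95% interval from -0.034 to 0.12 (adjusted p = 0.722, edgeR). Per kb, Slc25a5 exceeded its paralogue Slc25a4 by a ratio of 3.06 ± 0.171 in control and 2.98 ± 0.231 in KO (SD, n = 5). Both encode ADP/ATP carriers, and fragments shared by their similar sequences or by pseudogene copies may be split between them. Slc25a3, the phosphate carrier that supplies ATP synthase, had 409 ± 11.5 CPM in control, against 417 ± 10.5 CPM in KO (SD, n = 5). The calcium-regulated ATP-Mg/phosphate carriers Slc25a23, Slc25a25 and Slc25a24 were lower, at 12.1, 10.6 and 4.91 CPM per kb in control. Of these Slc25a24 had an unadjusted p under 0.05, with 16.9 ± 0.855 CPM in control, against 18.5 ± 0.888 CPM in KO (SD, n = 5). Its log2 fold change was 0.14, with an interval from 0.014 to 0.26 (adjusted p = 0.345, edgeR), and 4 of 5 KO libraries lay above all control libraries.

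The di- and tricarboxylate carriers move citrate, malate, oxoglutarate and succinate, and all 3 tested members were abundant. Slc25a1, which exports citrate to the cytosol for fatty acid synthesis (chromosome 16, 17925223 to 17928219, minus strand), had 339, 339, 371, 400.5 and 369 CPM in control libraries 1 to 5, against 397, 345, 334, 337 and 354 in KO libraries 1 to 5. The groups overlapped widely, and KO library 1 was close to the highest control library. On the log2 scale the difference was -0.040, with a 95% interval from -0.17 to 0.088 (adjusted p = 0.884, edgeR), and it ran from -0.082 to -0.00012 with a library left out. Slc25a11 and the dicarboxylate carrier Slc25a10 had 82.3 and 80.3 CPM per kb in control and 86.4 and 78.1 CPM per kb in KO. Each overlaps a gene on the opposite strand (Rnf167 and Gm11788), and the counts cannot tell fragments of the pair apart. The strand setting of the counting is not given in the sources used here. The same limit holds for Slc25a23 (Gm17168), Slc25a25 (Naif1), Slc25a26 (Lrig1), Slc25a33 (Gm13068), Slc25a35 (Rangrf), Slc25a37 (Gm31748 and Gm27223) and Slc25a46 (B930094E09Rik). On the same strand, Slc25a51 overlaps Gm25692 and Slc25a47 overlaps Mir345.

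Of the 14 carriers of amino acids, glutathione and carnitine, 11 were tested and 0 passed the limit, with 7 positive and 4 negative log2 fold changes. Slc25a39 (chromosome 11, 102402985 to 102407946, minus strand) had 464, 485, 482, 449.6 and 479.5 CPM in control libraries 1 to 5, against 493, 468, 508, 509 and 543 in KO libraries 1 to 5. All KO libraries but the second lay above all control libraries. The log2 fold change was 0.10, with a 95% interval from 0.00015 to 0.19 (unadjusted p = 0.0497, adjusted p = 0.420, edgeR). Its paralogue Slc25a40, also linked to glutathione import, was far lower per kb, with a ratio of Slc25a39 to Slc25a40 of 120.3 ± 9.60 in control and 113 ± 14.7 in KO (SD, n = 5). Slc25a40 had 12.0 ± 0.719 CPM in control, against 13.6 ± 1.15 CPM in KO (SD, n = 5), a log2 fold change of 0.19 with an interval from 0.030 to 0.35 (adjusted p = 0.296, edgeR).

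Slc25a12, an aspartate/glutamate carrier of the malate-aspartate shuttle, was the single carrier with a negative log2 fold change and an unadjusted p under 0.05. It had 15.0 ± 0.703 CPM in control, against 13.6 ± 0.687 CPM in KO (SD, n = 5), and 4 of 5 KO libraries lay below the lowest control library. Its log2 fold change was -0.14, with an interval from -0.27 to -0.015 (adjusted p = 0.342, edgeR). Its paralogue Slc25a13, the form best known from the liver, was near the floor at 0.460 ± 0.0643 CPM in control, against 0.638 ± 0.338 CPM in KO (SD, n = 5). The glutamate carrier Slc25a22 had 31.4 CPM per kb in control and 33.5 CPM per kb in KO. Slc25a44, which carries branched-chain amino acids and is known from brown fat, had 241 ± 16.9 CPM in control, against 249 ± 17.1 CPM in KO (SD, n = 5). Slc25a20, the carnitine/acylcarnitine carrier of fatty acid oxidation, had 241 ± 9.99 CPM in control, against 248 ± 15.8 CPM in KO (SD, n = 5). The groups overlapped for both. Slc25a38, a glycine carrier of heme synthesis, Slc25a45, the ornithine carrier Slc25a15 and the basic amino acid carrier Slc25a29 lay between 7.15 and 2.02 CPM per kb in control.

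All 9 cofactor and nucleotide carriers of the table were tested and 0 passed the limit, with 7 positive and 2 negative log2 fold changes and a median of 0.064. Slc25a51, which brings NAD into mitochondria (chromosome 4, 45395923 to 45408766, minus strand), had 301, 295, 294, 288 and 287 CPM in control libraries 1 to 5, against 276, 318, 299, 311 and 307 in KO libraries 1 to 5. KO library 1 lay below all control libraries and KO libraries 2, 4 and 5 above them. The estimate was a log2 fold change of 0.044, with a 95% interval from -0.047 to 0.13 (adjusted p = 0.782, edgeR), and it was 0.077 without KO replicate 1. Slc25a17, a carrier of peroxisomes, had 30.5 CPM per kb in control and 30.3 CPM per kb in KO.

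Slc25a16 and Slc25a42, both linked to coenzyme A, had 16.1 and 13.8 CPM per kb in control. The pyrimidine nucleotide carriers Slc25a33 and Slc25a36 had 14.0 and 6.69 CPM per kb, the folate and flavin carrier Slc25a32 had 5.52 CPM per kb and the S-adenosylmethionine carrier Slc25a26 had 5.37 CPM per kb. Slc25a33 is named here after its values were seen, because 1 library decided its side of the limit. It had 25.8 to 27.0 CPM in control, 24.0 CPM in KO library 1 and 29.4 to 30.7 CPM in the other KO libraries. Over all libraries the log2 fold change was 0.13 (adjusted p = 0.458, edgeR), and without KO replicate 1 it was 0.20 (adjusted p = 0.0430, edgeR).

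Both iron carriers were tested and 0 passed the limit. Slc25a28, or mitoferrin 2 (chromosome 19, 43663801 to 43674881, minus strand), had 31.2, 32.2, 32.4, 30.4 and 29.4 CPM in control libraries 1 to 5, against 28.7, 31.1, 31.1, 26.1 and 29.9 in KO libraries 1 to 5. KO libraries 1 and 4 lay below all control libraries and the others overlapped them. The log2 fold change was -0.083, with a 95% interval from -0.21 to 0.040 (adjusted p = 0.647, edgeR), and it was -0.043 without KO replicate 4. Per kb it exceeded Slc25a37, or mitoferrin 1, the form of red cell precursors, by a ratio of 3.11 ± 0.661 in control and 3.14 ± 0.403 in KO (SD, n = 5).

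Of the 4 carriers grouped here as like uncoupling proteins, 0 passed the limit. Slc25a30 was the most abundant of them at 8.34 CPM per kb in control. Slc25a30 (chromosome 14, 75760117 to 75787037, minus strand) had 40.7, 44.6, 37.8, 32.6 and 35.0 CPM in control libraries 1 to 5, against 32.8, 39.2, 40.2, 40.0 and 37.2 in KO libraries 1 to 5. The groups overlapped throughout. KO over control gave a log2 fold change of -0.010, with a 95% interval from -0.19 to 0.17 (adjusted p = 0.988, edgeR), and its sign changed when control library 1 or 2 or KO library 1 was left out. The other 3, Slc25a14, Slc25a47 and Slc25a27, were low, with 1.19, 0.779 and 0.227 CPM per kb in control.

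Of the 6 members without a settled substrate, 4 were tested and 0 passed the limit. Slc25a34 (chromosome 4, 141618824 to 141623821, minus strand) had 73.8, 82.2, 66.7, 96.7 and 76.2 CPM in control libraries 1 to 5, against 105, 91.0, 97.2, 87.2 and 95.8 in KO libraries 1 to 5. Control library 4 lay among the KO libraries and the other control libraries lay below all of them. The log2 fold change was 0.27, with a 95% interval from 0.081 to 0.45 (unadjusted p = 0.00868, adjusted p = 0.182, edgeR; 2-sided exact permutation test, p = 0.0397). It had the lowest unadjusted p of the family. Without control replicate 4 the log2 fold change was 0.35 (adjusted p = 0.0140, edgeR). With all libraries, limma voom gave 0.29 (adjusted p = 0.0383). That fit weights each library by its quality, and the weight of control library 4 was not examined. Over all alternatives the adjusted p of Slc25a34 ran from 0.0140 to 0.357. Slc25a46, a protein of the outer membrane that shapes mitochondria, and Slc25a35 had 21.7 and 10.3 CPM per kb in control and 22.9 and 10.4 CPM per kb in KO. Slc25a53 was low at 0.546 CPM per kb in control.

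**Figure D3:**
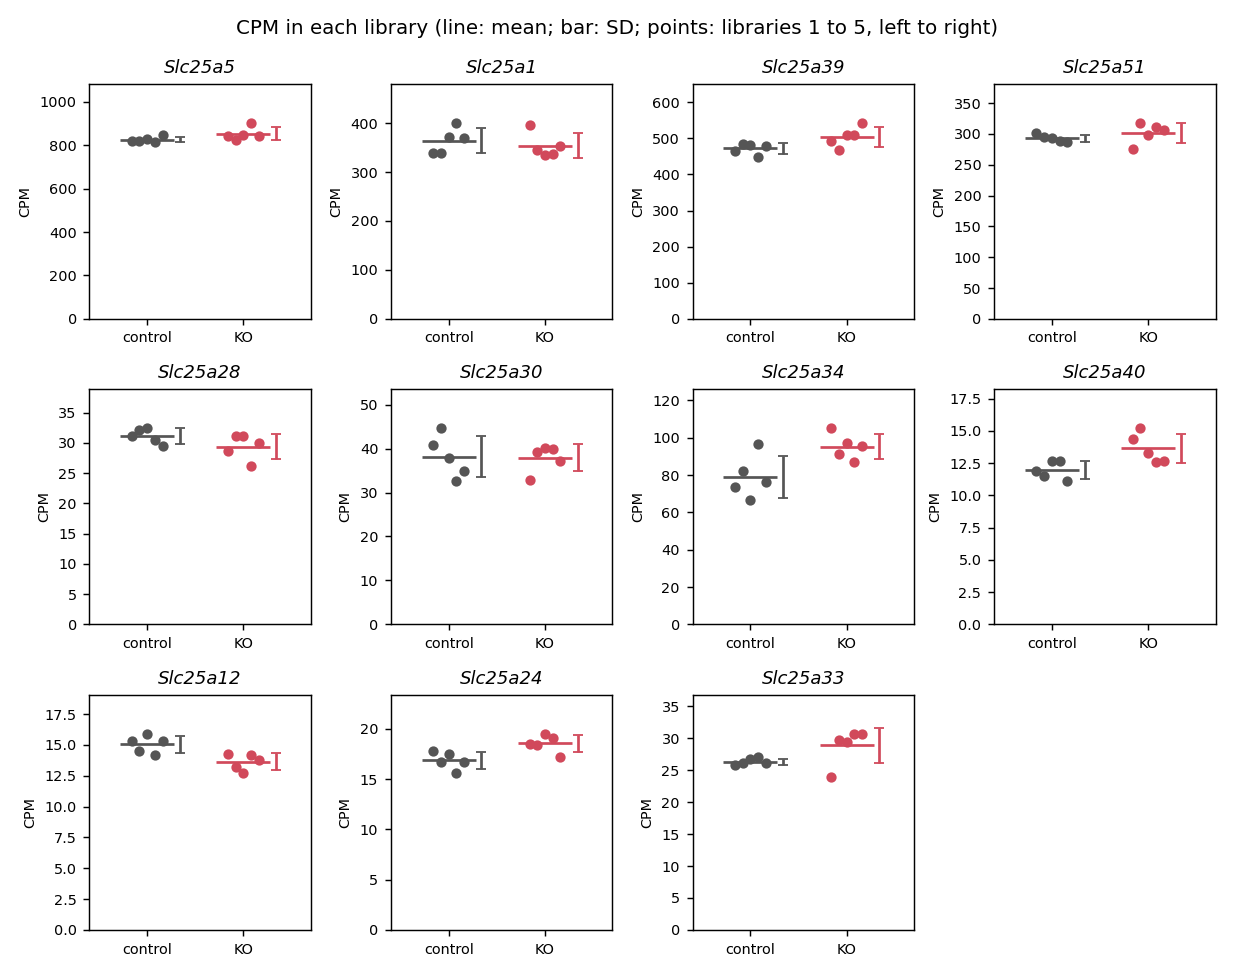
CPM in each library (points, libraries 1 to 5 from left to right) of 11 carriers, with the mean (line) and SD (bar) of the 5 control and 5 KO libraries, on axes that start at 0. Control and KO libraries overlap for each of the 11, and for Slc25a34 only control library 4, at 96.7 CPM, lies among the KO libraries.

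Genes that work with the carriers were read from lists by function. Of 15 carriers and channels that have other names, 1 rose and 0 fell, where 0.308% of all genes tested rose and 1.86% fell. Ucp1, uncoupling protein 1 (chromosome 8, 83290352 to 83298452, plus strand), had 11.4, 12.0, 13.5, 25.0 and 17.5 CPM in control libraries 1 to 5, against 28.6, 27.0, 24.0, 32.0 and 33.9 in KO libraries 1 to 5. Control library 4 lay above KO library 3, and the other control libraries lay below all KO libraries. Ucp1 rose by a log2 fold change of 0.87, with a 95% interval from 0.47 to 1.28 (adjusted p = 0.0284, edgeR). It no longer passed with robust dispersion or with control replicate 1, 2, 3 or 5 or KO replicate 2, 4 or 5 left out, where the log2 fold change was 0.78 to 0.91, and over all alternatives the adjusted p ran from 0.00024 to 0.0856. Ucp1 was the single brown or beige fat marker of 9 that passed the limit; the 9 summed to 809 to 872 CPM in control and 874 to 953 CPM in KO libraries. Per kb the most abundant of the 9 was Cox7a1, at 254 CPM per kb in control, ahead of Elovl3 at 222 CPM per kb. Among the markers that did not pass, Cidea and Cox7a1 are named after their values were seen. Cidea, a lipid droplet protein, had 60.1 ± 15.9 CPM in control, against 90.4 ± 10.4 CPM in KO (SD, n = 5), a log2 fold change of 0.59 with a 95% interval from 0.28 to 0.90 (adjusted p = 0.0586, edgeR), and control library 4, at 87.2 CPM, lay among the KO libraries. Cox7a1, a subunit of cytochrome c oxidase, had a log2 fold change of 0.16 with a 95% interval from 0.069 to 0.25 (adjusted p = 0.0775, edgeR), and all its KO libraries lay above all control libraries. Ucp2, Mpc1 and Mpc2, the last 2 forming the pyruvate carrier, had log2 fold changes of 0.066, 0.059 and 0.053 and did not pass. Ucp2 and Mpc1 each overlap a gene on the opposite strand (Dnajb13 and 4930506C21Rik), whose fragments cannot be told apart from theirs. The sideroflexins, a further family of carriers, are named here after their values were seen. Sfxn3 and Sfxn5 had log2 fold changes of -0.25 (adjusted p = 0.160, edgeR) and -0.21 (adjusted p = 0.276, edgeR), and the KO libraries of Sfxn3 lay below all control libraries. The other sideroflexins went both ways without passing. Sfxn1, at 397 CPM in control the highest in CPM per kb of the family, had a log2 fold change of 0.13 with a 95% interval from 0.023 to 0.24 (adjusted p = 0.287, edgeR), Sfxn4 had 0.24 (adjusted p = 0.519, edgeR) and Sfxn2 had -0.12 (adjusted p = 0.820, edgeR).

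Of 15 tested genes for the import of carriers into the inner membrane, 0 passed the limit, with 10 positive and 5 negative log2 fold changes and a median of 0.027. The lowest p was that of Tomm22, a receptor of the outer membrane translocase, at 90.5 ± 2.26 CPM in control, against 93.7 ± 2.74 CPM in KO (SD, n = 5; log2 fold change 0.051, adjusted p = 0.670, edgeR). The 4 enzymes of the malate-aspartate shuttle likewise held 0 past the limit, all 4 with positive log2 fold changes. Got1, the cytosolic aspartate aminotransferase, had 84.8 ± 4.09 CPM in control, against 90.0 ± 3.02 CPM in KO (SD, n = 5; log2 fold change 0.086, adjusted p = 0.473, edgeR).

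Among 8 genes for the export and use of citrate, 1 fell and 0 rose, where 1.86% of all genes tested fell and 0.308% rose. Me1, the cytosolic malic enzyme that makes NADPH for fatty acid synthesis (chromosome 9, 86581371 to 86695953, minus strand), had 574, 554, 593, 678 and 624 CPM in control libraries 1 to 5, against 540.2, 494, 455, 532 and 487 in KO libraries 1 to 5. All KO libraries lay below all control libraries. Me1 fell by a log2 fold change of -0.27, with a 95% interval from -0.40 to -0.13 (adjusted p = 0.0420, edgeR; 2-sided exact permutation test, p = 0.00794, the smallest that 5 against 5 can give). It no longer passed with the replicate block or with control replicate 1, 3, 4 or 5 or KO replicate 2, 3, 4 or 5 left out, where the log2 fold change was -0.29 to -0.22, and over all alternatives the adjusted p ran from 0.00388 to 0.122. Its mean was 605 ± 48.2 CPM in control, against 502 ± 34.7 CPM in KO (SD, n = 5). Gm7049, a processed pseudogene described as a copy of Me1 and named after its values were seen, had 2.73 ± 0.295 CPM in control, against 14.3 ± 1.30 CPM in KO (SD, n = 5). The sequences were not compared here, and whether the genes share fragments was not tested. Acly and Fasn, which turn exported citrate into fatty acids, had log2 fold changes of 0.016 and -0.11 and did not pass.

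Of the 6 genes of the carnitine shuttle, 0 passed the limit. An unadjusted p under 0.05 was found for 4, against 11.9% of all genes, with positive log2 fold changes for Slc22a5 (0.14), which takes up carnitine, and Crat (0.10), and negative ones for Cpt1c (-0.27) and Cpt1a. The lowest p was that of Cpt1a, which makes acylcarnitine at the outer membrane, with 47.4 ± 2.86 CPM in control, against 41.6 ± 3.37 CPM in KO (SD, n = 5). Its log2 fold change was -0.19, with an interval from -0.32 to -0.055 (adjusted p = 0.188, edgeR). Of 12 tested regulators of mitochondrial gene expression, 0 passed the limit, and 11 had positive log2 fold changes, with a median of 0.085 against -0.00085 for all tested genes, of which 49.7% were positive. Pparg, the master regulator of fat cell differentiation, had the lowest p, with 225 ± 7.29 CPM in control, against 242 ± 4.62 CPM in KO (SD, n = 5; log2 fold change 0.10, adjusted p = 0.218, edgeR). Ppargc1a, a coactivator of mitochondrial biogenesis, had a log2 fold change of 0.19 with an interval from -0.021 to 0.40.

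The members lie on many chromosomes, and 4 pairs of members lie within 100 kb of each other. Slc25a5 follows Slc25a43 on the plus strand of chromosome X after 18.4 kb, with 502 CPM per kb in control against 0.132 CPM per kb for Slc25a43. Slc25a24 follows Slc25a54 on the plus strand of chromosome 3 after 6.46 kb, with 4.91 CPM per kb against 0 counts for Slc25a54. Slc25a23 and Slc25a41, on the minus strand of chromosome 17, are 2.06 kb apart, with 12.1 and 0.00788 CPM per kb. Slc25a29 and Slc25a47 on chromosome 12 point away from each other and are 0.162 kb apart, with 2.02 and 0.779 CPM per kb.

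Promoter windows of RefSeq (GRCm38.p6; 250 bases before to 50 bases after the gene's start) matched 36 of the 47 members by symbol. The median number of CG dinucleotides in a window was 18.5 for the 30 tested members with a window, from 1 for Slc25a34 to 47 for Slc25a40, and 12.5 for the 6 untested ones. It was 21 over the windows of all tested genes and 7.00 over all 27025 windows. Motifs were searched on both strands. AAGGTCA, a motif of estrogen-related receptors, was in 1 of the 30 tested members (3.33%), Slc25a34, and in 3.10% of the windows of all tested genes (4.65% of all windows). CCGGAAG, a core of GABPA sites, was in 6 of the 30 (20%), against 18.0% of all tested genes. With the untested Slc25a54 it was in 7 of the 36 (19.4%), against 9.14% of all windows. GCGCATGC, a core of NRF1 sites, was in 0 of the 30, against 5.27% of all tested genes. With the untested Slc25a31 and Slc25a54 it was in 2 of the 36 (5.56%), against 2.80% of all windows. These matches are descriptions of the sequence and not sites of binding.

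The 250 bases before the start are shown for the neighbours on chromosomes X and 3, because these pairs set a carrier with counts beside one with few or none. The pair on chromosome 17 does so as well, but Slc25a41 was not among the members matched to a promoter window. CG dinucleotides are in capitals, the NRF1 and GABPA cores in the Slc25a54 window are not marked apart from their CG, and all 4 genes are on the plus strand of GRCm38.p6. The windows are chrX:36795347-36795596 for Slc25a5, chrX:36743382-36743631 for Slc25a43, chr3:109122899-109123148 for Slc25a24 and chr3:109080249-109080498 for Slc25a54. They hold 14, 6, 14 and 10 CG dinucleotides, and 61.6%, 50.8%, 72.8% and 58.8% of their bases are G or C.
Slc25a5: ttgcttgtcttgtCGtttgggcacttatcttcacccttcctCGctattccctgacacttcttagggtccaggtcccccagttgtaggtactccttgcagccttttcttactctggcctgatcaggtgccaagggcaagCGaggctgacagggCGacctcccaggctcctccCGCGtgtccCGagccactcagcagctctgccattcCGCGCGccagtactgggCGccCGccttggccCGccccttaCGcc
Slc25a43: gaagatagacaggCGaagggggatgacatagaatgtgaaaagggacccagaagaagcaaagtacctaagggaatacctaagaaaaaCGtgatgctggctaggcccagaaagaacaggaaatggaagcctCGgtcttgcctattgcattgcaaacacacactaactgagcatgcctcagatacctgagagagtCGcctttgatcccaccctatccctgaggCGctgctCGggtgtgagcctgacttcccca
Slc25a24: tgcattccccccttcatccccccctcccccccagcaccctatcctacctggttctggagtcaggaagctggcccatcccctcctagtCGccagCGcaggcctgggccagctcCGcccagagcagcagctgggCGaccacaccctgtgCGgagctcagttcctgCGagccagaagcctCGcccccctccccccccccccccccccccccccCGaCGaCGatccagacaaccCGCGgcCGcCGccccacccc
Slc25a54: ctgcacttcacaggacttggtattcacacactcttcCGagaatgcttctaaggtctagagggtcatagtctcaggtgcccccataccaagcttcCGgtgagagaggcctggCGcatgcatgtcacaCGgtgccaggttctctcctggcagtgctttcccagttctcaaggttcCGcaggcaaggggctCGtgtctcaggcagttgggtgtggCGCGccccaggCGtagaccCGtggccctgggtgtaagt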

How the data were processed

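The authors aligned reads with STAR, assigned fragments to genes with featureCounts and deposited the raw counts of 56748 genes in 5 control and 5 KO libraries. The build per the labels is mm10. Low genes were dropped with filterByExpr (minimum count 10). KO and control were compared, unpaired, by the quasi-likelihood test of edgeR 4.0.16 (R 4.3.3) after TMM scaling, with Benjamini-Hochberg adjustment over all 14270 genes (limit 0.05). The 95% intervals use the log2 fold change over the square root of F as standard error. Exact permutations took all 252 assignments on log2 CPM (prior count 2). Exon lengths and positions come from GENCODE M21. Libraries of a group differed by more than sampling noise (chi-square per degree of freedom at least 3.29). Alternatives were DESeq2 1.42.0, limma 3.58.1 voom, RLE and upper quartile scaling, other filters, robust dispersion, a replicate block, each library left out, pseudogene rows added and longest transcripts as lengths. The voom fit gave each library a quality weight. Genes given a test are Fam20c, members with an unadjusted p under 0.05 or separate libraries, the most abundant member of each role and, per list, the genes past the limit or else that with the lowest p, with exceptions named as such. Log2 fold changes are also printed for Slc25a4, Ucp2, Mpc1, Mpc2, Slc22a5, Crat, Cpt1c, Acly, Fasn and Ppargc1a, which this rule did not pick. The values of 1 tested member are not reported here, and counts, sums and medians include it. Members and lists were chosen with earlier results of these data known. Scripts were tested on simulated data.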

Additional observations from a re-analysis of the deposited data

Results flagged for a closer look

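Among 92 groups of 5 libraries (tested carriers and other named genes, control and KO apart), 4 held a library whose gap to the nearest other exceeded Dixon's critical value of 0.71 of the range, where chance gives about 1 in 20 groups, or 4.60. Slc25a20, the carnitine/acylcarnitine carrier, had 223 CPM in control library 4 against 242 to 248 CPM in the other control libraries. Slc25a33, a pyrimidine nucleotide carrier, had 24.0 CPM in KO library 1 against 29.4 to 30.7 CPM in the other KO libraries. Slc25a4, an ADP/ATP carrier, had 455 CPM in KO library 1 against 393 to 404 CPM in the other KO libraries. Slc25a5, the more abundant ADP/ATP carrier, had 903 CPM in KO library 4 against 826 to 848 CPM in the other KO libraries. KO library 1 was the library picked out in 2 of the 4 groups, high for Slc25a4 and low for Slc25a33. The 4 groups are no more than the 4.60 that chance gives, so no trait of a library is read from them.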

How the results depend on the processing

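Genes past the limit numbered 44 higher and 265 lower in KO with all libraries. DESeq2 gave 125 higher and 359 lower, limma voom 111 and 347, and the replicate block 21 and 193. The share of calls that are higher was 14.2% by edgeR without the block, 25.8% by DESeq2, 24.2% by limma voom, 9.81% with the replicate block and 26.9% without control replicate 4. Leaving out 1 library gave 19 to 119 higher genes, the most without control replicate 4, and 164 to 323 lower genes, the fewest without KO replicate 2. Carriers higher in KO numbered 0, except for 1 with limma voom (Slc25a34) and 0 to 1 with a library left out (Slc25a34 without control replicate 4, Slc25a33 without KO replicate 1), and carriers lower in KO numbered 0 under all 18 alternatives. The cause of these differences was not tested. The carriers' median log2 fold change was 0.033 to 0.049 under the 8 alternatives with all libraries and 0.024 to 0.058 with a library left out.

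Of 324 values of the 18 named genes under the alternatives, 302 kept their sign and their side of the limit, 17 no longer passed, all of them Ucp1 or Me1, and 2 newly passed, both Slc25a34. The other 3 changed sign, all of them Slc25a30, which ran from -0.059 to 0.054 with a library left out and was at 0.013 without control replicate 1, 0.054 without control replicate 2 and 0.039 without KO replicate 1. With the replicate block 0 carriers passed, Me1 no longer passed at -0.27, and same-numbered libraries correlated between -0.251 and 0.263 after removal of group means, so the numbers were not taken as pairs; 1 of the 5 pairs correlated best with its own number. Adding the pseudogene row left the summed CPM at 4995 in control and 5155 in KO. With longest transcripts as lengths, Slc25a5 was at 666, Slc25a39 at 280.0, Slc25a1 at 218, Slc25a51 at 66.1 and Slc25a30 at 10.6 CPM per kb in control, and the most abundant member of each of the 7 roles was the same. Carriers under 10 CPM rest on few counts, and small differences in them are not detectable.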
